A study of Mus musculus with 4 samples.

Results

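Chromatin accessibility was examined at 9 genes for the recognition of apoptotic cells in large peritoneal macrophages (LPMs). Among them were the TAM receptor tyrosine kinases Mertk, Axl and Tyro3 and the bridging proteins Gas6, Pros1 and Mfge8. The others were the phosphatidylserine receptor Timd4 and the scavenger receptors Stab1 and Stab2. Overlapping peaks of the 4 ATAC-seq libraries were merged (1 bp was enough), and a merged region was taken when its midpoint was nearest to the transcription start site (TSS) of one of these genes or when it overlapped the gene body. This rule found 52 regions among the 70744 of the series. Mertk had 16 of them, Timd4 9, Axl 7, Stab1 and Gas6 6 each, Tyro3 and Pros1 3 each, and Stab2 and Mfge8 1 each. The libraries came from sorted LPMs of 9-week-old C57BL/6 mice, with 40000 cells per library. Controls were Rxrab fl/fl mice, which carried floxed alleles of Rxra and Rxrb without Cre (replicates 1 and 3, here WT1 and WT3 after their labels). LysMCre+ Rxrab fl/fl mice carried the same alleles with Cre expressed from the LysM locus in myeloid cells (replicates 1 and 2, here KO1 and KO2). RXRα and RXRβ are nuclear receptors that act as the shared partners of other nuclear receptors, and the comparison asked how their loss altered open chromatin in LPMs. The sources do not say whether each library came from separate mice, so the p values given here measure the spread between these libraries only. Samples that did not cluster with their group were left out by the study, which can make that spread look smaller than it was.

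Dying cells expose phosphatidylserine, and phagocytes read this signal directly or through a bridge. TIM4 (Timd4), stabilin-1 and stabilin-2 bind the lipid themselves. Gas6 and protein S (Pros1) link it to the TAM receptors, of which MERTK is the main one in resident macrophages, and MFG-E8 (Mfge8) links it to αv integrins. TIM4 is a marker of long-lived resident peritoneal macrophages, and phagocytosis of lipid-rich cells feeds ligands to nuclear receptors such as LXR and PPAR, which pair with RXR. An ATAC-seq peak marks DNA open to the transposase and is no measure of transcription.

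The libraries differed in how much was called. WT3 had 16097 peaks and WT1 had 38048, against 65421 and 55581 in KO1 and KO2. In regions called in all 4 libraries the median summit pileup, the number of extended tags that covered the summit, was 97 and 20 in WT and 99 and 65 in KO. WT3 thus stood apart from the other libraries in both measures. The lowest pileup called at the genome-wide background was 8 in WT1 and 6 in each other library. Divided by the median above, that was 0.0825 in WT1, 0.3 in WT3, and 0.0606 and 0.0923 in the KO libraries, so a region of moderate scaled pileup could go uncalled in WT3 alone. In a pool of sorted cells, a site open in more cells and a site more open in each cell cannot be told apart. At the deleted genes, 14 and 6 of the 26 regions of Rxra were called in the WT libraries and 25 and 22 in the KO libraries, near the shares of all regions called in each (52%, 21.9%, 90.7% and 77.2%). The 2 regions of Rxrb were called at 2 and 1 in WT and 2 and 1 in KO, and peaks outside the deleted exons do not check the deletion. Of the 10 LPM marker genes, 7 and 6 had a peak at the TSS in the WT libraries and 10 and 10 in KO, with summed fold enrichments of 72.8, 46.3, 81.2 and 77.2. Of 8 markers of small peritoneal macrophages and monocytes, 3 and 2 had one in WT and 7 and 6 in KO, with sums of 37.8, 16.4, 71.9 and 53.2, and Ccr2 had none in any library. Of 7 B cell genes, 1 and 0 had a TSS peak in WT and 1 and 1 in KO, in each case Ebf1 (11.7 in WT1, 12.0 and 10.4 in KO), while Cd79a and Ms4a1 had none. The counts were the same for 7 T cell genes, through Tcf7 (5.76, 7.19 and 3.6), with none at Cd3e, Cd4 or Cd8a. They were also the same for 6 genes of mesothelial cells and fibroblasts, through Pdgfra (7.49, 9.63 and 6.53), and no TSS peak was called at the 6 genes of mast cells and eosinophils. Neutrophil genes had TSS peaks at 1 and 0 of 6 in WT and at 4 and 2 of 6 in KO, with summed fold enrichments of 14.0, 0.0, 36.9 and 21.4. The part of other cells in the regions described next was not tested.

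Sequences are shown first for the regions on which the comparison turned. Each spans the strongest summit and 100 bases on either side, on the plus strand of GRCm38 (mm10), with motif matches in capitals. Included are the strongest region of Mertk, Axl, Timd4, Stab1 and Gas6, and the regions of Mertk, Stab1 and Gas6 that passed the threshold in a fit described later. They were chosen by those values.
Mertk, 83.6 kb downstream of the TSS, chr2:128782332-128782532: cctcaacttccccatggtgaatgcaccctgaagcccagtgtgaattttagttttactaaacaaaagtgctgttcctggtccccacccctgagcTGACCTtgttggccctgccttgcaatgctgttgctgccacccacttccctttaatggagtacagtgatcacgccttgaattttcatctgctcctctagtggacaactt
Mertk, 97.7 kb downstream, chr2:128796578-128796778: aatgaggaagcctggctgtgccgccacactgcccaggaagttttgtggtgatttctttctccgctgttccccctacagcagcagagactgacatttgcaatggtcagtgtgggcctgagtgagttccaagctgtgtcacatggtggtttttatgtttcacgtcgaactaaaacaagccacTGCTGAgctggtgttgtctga
Mertk, 20.6 kb downstream, chr2:128719444-128719644: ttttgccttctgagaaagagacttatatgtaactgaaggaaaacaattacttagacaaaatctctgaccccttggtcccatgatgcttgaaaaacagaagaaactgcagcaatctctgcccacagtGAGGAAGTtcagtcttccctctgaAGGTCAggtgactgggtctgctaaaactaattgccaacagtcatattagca
Axl, 11.9 kb downstream, chr7:25776832-25777032: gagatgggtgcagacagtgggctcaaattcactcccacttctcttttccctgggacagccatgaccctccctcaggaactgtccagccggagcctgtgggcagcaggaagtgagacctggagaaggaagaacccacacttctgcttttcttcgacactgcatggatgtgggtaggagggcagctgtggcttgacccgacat
Timd4, 253 kb downstream, chr11:47063836-47064036: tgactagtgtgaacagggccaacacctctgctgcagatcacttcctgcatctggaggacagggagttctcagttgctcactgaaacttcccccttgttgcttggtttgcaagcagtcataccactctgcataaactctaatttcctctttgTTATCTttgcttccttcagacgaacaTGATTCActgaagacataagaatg
Stab1, 7.82 kb downstream, chr14:31160562-31160762: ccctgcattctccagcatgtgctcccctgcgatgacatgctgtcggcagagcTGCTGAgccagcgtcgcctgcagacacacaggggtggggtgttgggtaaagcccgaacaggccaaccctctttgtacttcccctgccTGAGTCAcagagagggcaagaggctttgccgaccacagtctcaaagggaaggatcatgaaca
Stab1, 4.28 kb upstream, chr14:31172752-31172952: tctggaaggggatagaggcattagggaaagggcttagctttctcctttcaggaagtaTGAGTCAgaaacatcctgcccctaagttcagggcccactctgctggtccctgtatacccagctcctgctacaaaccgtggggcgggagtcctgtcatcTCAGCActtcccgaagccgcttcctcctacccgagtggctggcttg
Gas6, 9.7 kb upstream, chr8:13504078-13504278: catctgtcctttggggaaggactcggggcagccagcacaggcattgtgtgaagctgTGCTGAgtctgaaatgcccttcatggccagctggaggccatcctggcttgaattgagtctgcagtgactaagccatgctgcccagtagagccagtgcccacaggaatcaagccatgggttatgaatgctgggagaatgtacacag
Gas6, 6.87 kb upstream, chr8:13501301-13501501: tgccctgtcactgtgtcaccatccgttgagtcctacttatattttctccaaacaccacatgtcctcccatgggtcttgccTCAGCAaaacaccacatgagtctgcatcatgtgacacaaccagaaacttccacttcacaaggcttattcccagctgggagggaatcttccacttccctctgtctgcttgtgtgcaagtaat

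The capitals mark the letters of 8 short motifs searched on both strands: PU.1 (GAGGAAGT), C/EBP (TTGCNNAA), AP-1 (TGANTCA), the MAF half-site (TGCTGA), the nuclear receptor half-site (AGGTCA), the KLF CACCC box (CCACACCC), the E-box (CACGTG) and the site of GATA factors, spelled AGATAA. The MAF half-site and AP-1 can overlap, and DR1, DR4 and DR5, the paired half-sites bound by RXR with its partners, contain the nuclear receptor half-site in part of their forms. AGGTCA, read on the minus strand, began 7 bases before the summit of the Mertk region 83.6 kb downstream, and it shared the window of the Mertk region 20.6 kb downstream with a PU.1 match. TGCTGA was found in both Gas6 regions, in both Stab1 regions and in the Mertk region 97.7 kb downstream, and AP-1 in both Stab1 regions and in the distal Timd4 region, where a GATA match was also present. The Axl window held none of the motifs.

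Across all 52 regions the MAF half-site was the most frequent match, in 14 (26.9%), against 19.4% of all merged regions. The nuclear receptor half-site was found in 9 (17.3% against 13.0%) and C/EBP in 9 (17.3% against 11.1%). AP-1 was found in 7 (13.5% against 12.7%), PU.1 in 5 (9.62% against 9.3%) and GATA in 3 (5.77% against 6.44%). The E-box was found in 4 (7.69% against 5.12%) and the CACCC box in 1 (1.92% against 3.47%). DR1, DR4 and DR5 were in none of the 52 windows, and in 0.164%, 0.1% and 0.151% of all merged regions. A match describes letters and not binding.

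**Figure D1:**
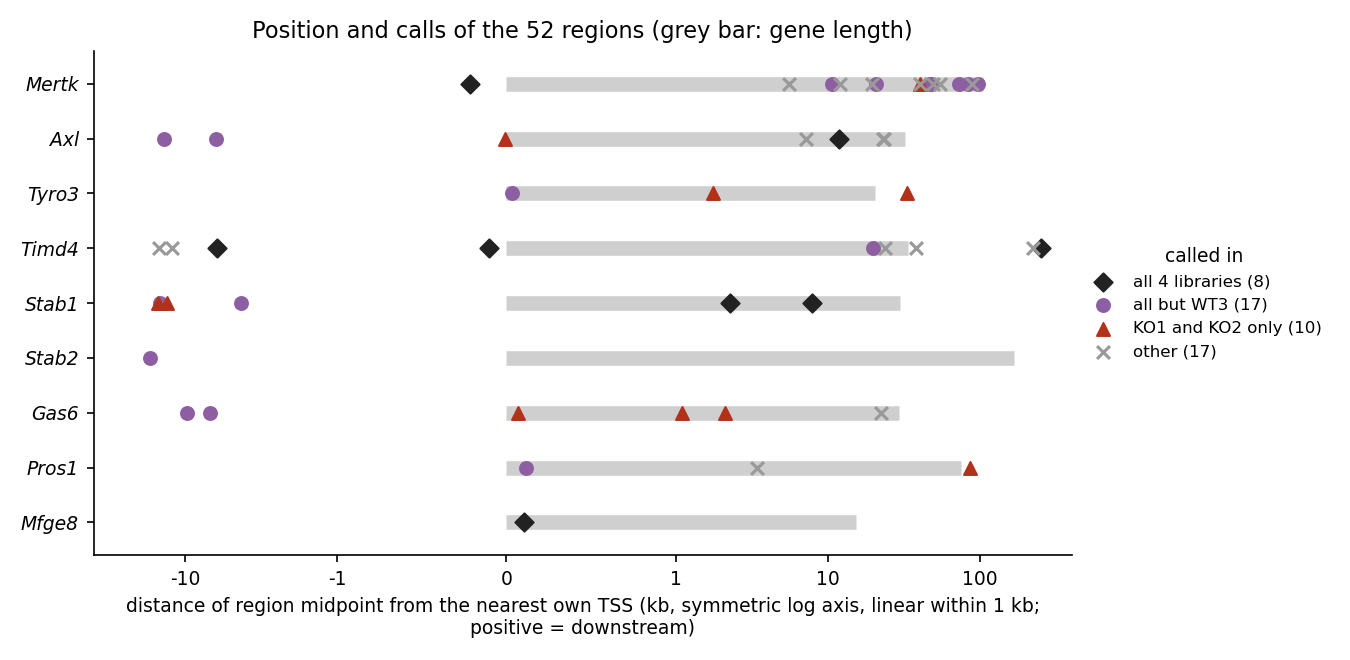
Position of the 52 regions relative to the nearest TSS of their gene, in kb on a symmetric log axis, with the gene length as a grey bar and the symbol giving the libraries in which the region was called. Mertk regions ran through the gene, and the distal Timd4 region lay 253 kb beyond its TSS.

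The midpoint lay in an intron of the gene in 27 of the 52 regions, between genes in 20, in the 5' UTR in 3 and in a coding exon in 2. A region reached the window from 1 kb upstream to 200 bp downstream of an own TSS at 7 of the 9 genes, the exceptions being Stab1 and Stab2. Of the 52, 8 were called in all 4 libraries (15.4%, against 21.5% of all merged regions) and 17 in every library but WT3 (32.7%, against 25.5%). A further 10 were called in both KO libraries and in neither WT library, 19.2% against a background of 22.8%. The reverse pattern was found in 0 of 52, against 0.0452%. The count of 10 moved with the libraries included, to 27 of 52 without WT1 (background 49.2%), 10 of 52 without WT3 (22.9%), 13 of 43 without KO1 (36.4%) and 19 of 49 without KO2 (44.3%). The reverse pattern stayed at 0 in these counts, against backgrounds of 0.217%, 1.78%, 0.183% and 0.082%. By library, 30 of the 52 were called in WT1 (57.7%; background 52%) and 8 in WT3 (15.4%; background 21.9%). In KO1 47 were called (90.4%; background 90.7%) and in KO2 40 (76.9%; background 77.2%). Shares for the uptake genes were thus close to those of the series as a whole in both KO libraries.

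**Figure D2:**
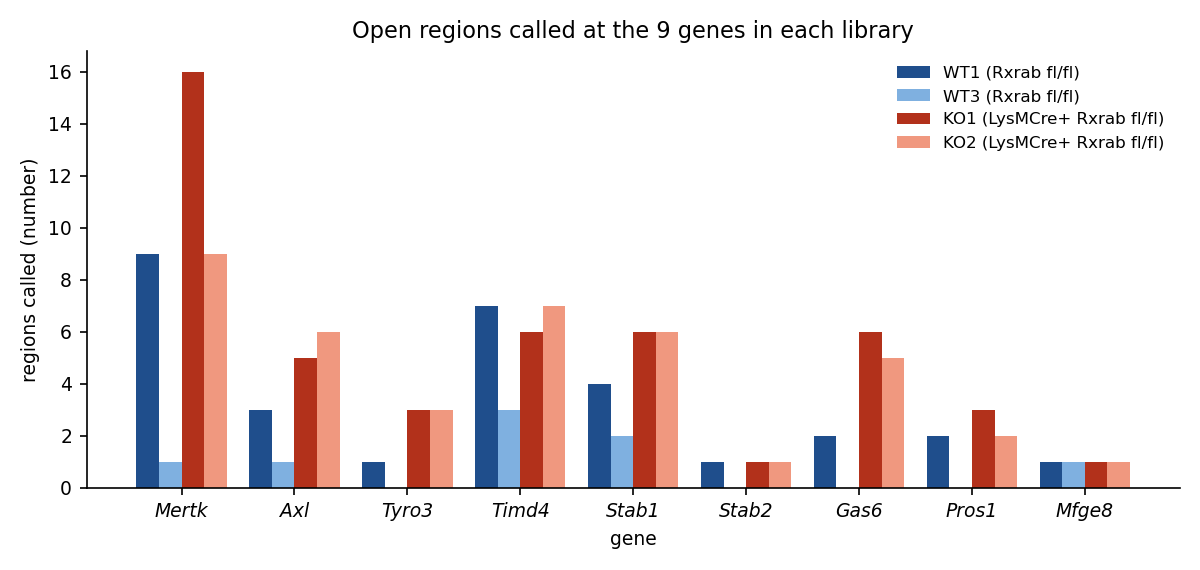
Number of regions called at each of the 9 genes in each library (bars, from 0). Mertk had 9 and 1 regions in the WT libraries and 16 and 9 in KO, Gas6 had 2 and 0 against 6 and 5, and Mfge8 had 1 in every library.

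These counts moved with the number of peaks taken. With the same number of peaks taken from each library, 14 regions remained at the 9 genes, of which 8 and 8 were called in the WT libraries and 9 and 10 in KO. Then 2 of the 14 were called only in both KO libraries, the Mertk region 97.7 kb downstream and the Gas6 region 9.7 kb upstream, against a background of 7.82%. None of the 14 was called only in both WT libraries, against 7.22%. Of the 10 regions called only in KO in the full lists, 4 had scaled pileups in both of those libraries above the lowest call of WT3 (40%, against 21.5% of all regions of that pattern), and 10 above that of WT1 (against 99.1%).

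The genotypes were compared with limma in the 15199 regions that every library had called, on the log2 of the fold enrichment over the local background, centred on the median of each library. A region was called at an adjusted p under 0.05 with a log2 fold change past 1. None of the 8 regions of the uptake genes passed, against 0.0395% of all regions higher in KO and 0.0461% higher in WT. The 8 log2 fold changes (KO minus WT) ran from -0.17 to 0.24, with a median of 0.01 against -0.09 over all regions, and the smallest adjusted p was 0.52. An unadjusted p under 0.05 was found for 0 of the 8 and for 3345 of the 15199 regions (22%). On the summit pileup, also scaled to the median, none of the 8 passed either, against 2.49% higher in KO and 4.98% higher in WT. Its smallest adjusted p among the 8 was 0.0566, and 4 of the 8 had an unadjusted p under 0.05, against 33.2% of all regions. Before centring, WT3 had the lowest fold enrichment at all 8. The medians used for centring were 14.5 and 7.52 in WT and 15.1 and 12.0 in KO. Below, fold enrichments and their overlap are given before centring, and log2 fold changes after it.

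**Figure D3:**
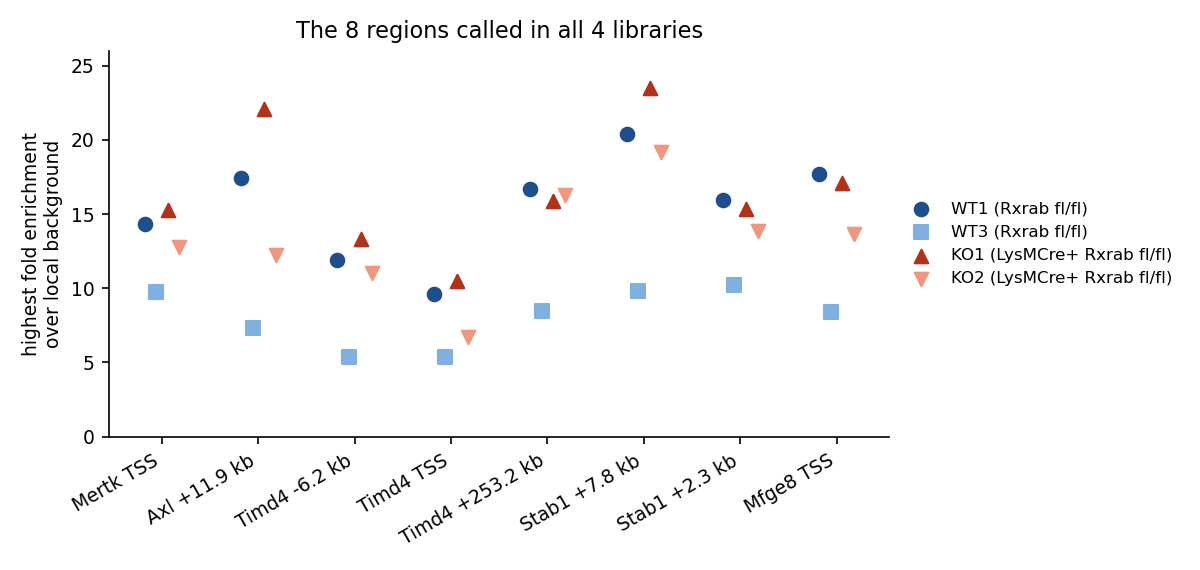
Highest fold enrichment over the local background in each library for the 8 regions called in all 4 libraries (vertical axis from 0, 1 point per library, not centred). WT3 lies lowest in each, and the KO points lie on both sides of WT1 in 5 of the 8.

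Of the TAM receptors, Mertk (chr2:128698915-128803007, plus strand) had the most regions, and 15 of its 16 lay in introns. Its TSS region (chr2:128698097-128699305) had fold enrichments of 14.3 and 9.74 in WT and 15.3 and 12.8 in KO. The groups overlapped, and the log2 fold change was -0.12 ± 0.22 (SE; limma, adjusted p = 0.77). The scaled summit pileup there was 1.32 and 1.45 against 1.58 and 1.57, a log2 difference of 0.18 ± 0.22 (limma, adjusted p = 0.58). The scaled pileups did not overlap between the groups, and neither measure passed the threshold. The share of all regions without such overlap was not counted, so lack of overlap here and below is a description only. The promoter was the sole Mertk region called in WT3, while WT1 had 9 of the 16.

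The strongest Mertk region lay in intron 13 (chr2:128782216-128782778), 83.6 kb downstream of the TSS and 35.8 kb from the TSS of Tmem87b, which is nearer. Its fold enrichment was 12.9 in WT1 and 20.6 and 14.0 in KO, and it was not called in WT3. In intron 18 (chr2:128796237-128796957), 97.7 kb downstream and 21.7 kb from the Tmem87b TSS, the values were 7.18 in WT1 and 17.7 and 16.5 in KO. Both KO libraries were above the single WT value at this intron 18 region. In intron 1 (chr2:128719373-128719691) the fold enrichment was 4.3 in WT1 and 8.2 and 5.81 in KO. The sole Mertk region called only in KO, in intron 4, was weak, at 4.29 and 4.12.

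Axl (chr7:25756500-25788733, minus strand), a TAM receptor that binds Gas6, had its strongest region in intron 6 (chr7:25776642-25777121). It was called everywhere, at 17.5 and 7.33 in WT and 22.1 and 12.3 in KO. The groups overlapped and did not differ beyond the spread (log2 fold change 0.17 ± 0.24 SE, limma, adjusted p = 0.69). The TSS region of Axl (chr7:25788551-25788936) was called only in KO, with fold enrichments of 6.71 and 5.26 and pileups of 19 and 15. Its scaled pileups of 0.192 and 0.231 were below the lowest call of WT3 and above that of WT1. The region 13.7 kb upstream was the reverse case in level, with pileups of 42 in WT1 and 18 and 18 in KO.

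Tyro3 (chr2:119797740-119818104, plus strand), the remaining TAM receptor, had no region in WT3. Its TSS region (chr2:119799197-119799892) was called at 5.28 in WT1 and at 9.83 and 4.34 in KO, on both sides of the control value. A region in intron 2 (6.3 and 6.63) and one 33.2 kb downstream of the TSS (8.17 and 7.21) were called only in KO. The latter was the strongest Tyro3 region by fold enrichment, on pileups of 18 and 14.

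Timd4 (chr11:46810799-46844333, plus strand) encodes the phosphatidylserine receptor TIM4 and was the gene with most regions called in all 4 libraries, 3 of 9. At its TSS region (chr11:46810444-46810953) the fold enrichment was 9.62 and 5.34 in WT and 10.5 and 6.74 in KO, so the groups overlapped (log2 fold change -0.14 ± 0.21 SE, limma, adjusted p = 0.73). The scaled pileup there was 0.402 and 0.5 in WT and 0.242 and 0.277 in KO. On this measure the groups did not overlap, and the log2 fold change of -0.79 ± 0.23 (SE) missed the threshold (limma, adjusted p = 0.0566). Relative to the median of all regions it was -0.69. Over the genome-wide background it was 0.35 and the median of all regions was 1.03. That scaling shifts every region by the same amount, so the relative value is the same by construction. Of the regions tested, 4.98% passed on pileup in that direction, as given above.

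The region 6.18 kb upstream of Timd4 (chr11:46804396-46804837) had fold enrichments of 11.9 and 5.34 in WT and 13.3 and 11.1 in KO. Here the groups overlapped only before centring (log2 fold change 0.24 ± 0.21 SE on centred values, limma, adjusted p = 0.52). The scaled pileups were 0.361 and 0.5 against 0.303 and 0.369. The strongest region assigned to Timd4 was intergenic (chr11:47063706-47064192), 253 kb downstream, with Timd4 as the nearest TSS and Havcr1, encoding the related receptor TIM1, as the next gene at 312.8 kb. Its fold enrichment was 16.7 and 8.49 in WT and 15.9 and 16.3 in KO (log2 fold change 0.07 ± 0.22 SE, limma, adjusted p = 0.88). The scaled pileup was 0.742 and 0.85 in WT and 0.364 and 0.646 in KO (log2 fold change -0.71 ± 0.29 SE, limma, adjusted p = 0.13). The scaled pileup groups did not overlap at this region either, and the log2 fold change was -0.61 relative to the median of all regions. Assignment at this distance rests on the nearest TSS alone. No Timd4 region was called only in one genotype in both of its libraries.

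Stab1 (chr14:31139017-31168641, minus strand) encodes stabilin-1, a scavenger receptor of macrophages and sinusoidal endothelium. No region was called at its TSS, and its strongest region (chr14:31160471-31161179) had its midpoint in coding exon 11, 0.1 kb from the TSS of the predicted gene Gm52148. The fold enrichment there was 20.4 and 9.79 in WT and 23.5 and 19.2 in KO, the highest fold enrichment among the 52 regions. The groups overlapped only before centring (log2 fold change 0.22 ± 0.21 SE on centred values, limma, adjusted p = 0.55). The scaled pileup was 1.62 and 1.35 in WT and 2.44 and 2.21 in KO, without overlap (log2 fold change 0.65 ± 0.23 SE, limma, adjusted p = 0.0847).

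In intron 1 of Stab1 (chr14:31166022-31166738), 2.26 kb downstream, the fold enrichment was 15.9 and 10.2 in WT and 15.3 and 13.8 in KO. These overlapped (log2 fold change -0.17 ± 0.22 SE, limma, adjusted p = 0.66). The scaled pileups, 1.45 and 1.45 against 2.19 and 2.71, did not overlap and gave a log2 fold change of 0.75 ± 0.23 (SE, limma, adjusted p = 0.0605). The sign thus differed between the measures at this region, and neither passed. Upstream, the region 4.28 kb from the TSS (chr14:31172660-31173190) had a fold enrichment of 4.33 in WT1 and 12.0 and 6.58 in KO. The pileups were 17 against 95 and 41. Further upstream, regions 13.2 kb (5.48 and 4.92) and 15.1 kb (6.52 and 6.25) from the TSS were called only in KO. Stab2, which encodes stabilin-2, had a single region 17.1 kb upstream (chr10:87024899-87025227) and none in its 167 kb gene body. Its fold enrichment was 7.75 in WT1 and 12.9 and 5.29 in KO, on both sides of the control.

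Gas6 (chr8:13465374-13494535, minus strand), the bridge between phosphatidylserine and the TAM receptors, had no region in WT3, 2 in WT1, and 6 and 5 in KO. Its strongest region lay 9.7 kb upstream (chr8:13503881-13504588), at 5.16 in WT1 and 13.3 and 10.5 in KO. The pileups were 15 against 111 and 62, which after scaling were 0.155 against 1.12 and 0.954. At 6.87 kb upstream (chr8:13501216-13501595) the fold enrichment was 4.71 in WT1 and 7.89 and 6.42 in KO, with scaled pileups of 0.134 against 0.646 and 0.554. All 4 of these KO scaled pileups were above the lowest call of WT3 at its genome-wide background, where neither region was called. The same held for both KO values in 64.7% of the 17 member regions called in every library but WT3. Over all merged regions of that pattern the share was 62.2%. The local background of an uncalled region is not in the peak lists.

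The TSS region of Gas6 (chr8:13494230-13494700) was called only in KO, with fold enrichments of 7.77 and 5.11 and pileups of 47 and 23. Its scaled pileups of 0.475 and 0.354 were above the lowest calls of WT1 and WT3, unlike those of the Axl TSS region, which were below that of WT3. Regions 2.12 kb (5.61 and 6.15) and 1.1 kb (3.49 and 4.85) downstream, both in intron 2, were also called only in KO. Gas6 thus held 3 of the 10 regions with this pattern, from 6 regions in all, and Tyro3 held 2 from 3. The share over all merged regions was 22.8%, and counts this small do not rank the genes.

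The 250 bases before the TSS of Axl and Gas6 are shown because these were the promoters called only in KO; they were chosen after the values were seen. Sequences are from RefSeq, GRCm38.p6, on the minus strand as each gene reads.
Axl upstream of the TSS, chr7:25788734-25788983: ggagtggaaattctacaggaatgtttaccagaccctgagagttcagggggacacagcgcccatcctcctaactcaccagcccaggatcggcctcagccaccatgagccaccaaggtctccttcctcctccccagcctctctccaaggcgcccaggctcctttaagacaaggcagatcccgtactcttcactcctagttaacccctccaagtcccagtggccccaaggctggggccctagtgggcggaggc
Gas6 upstream of the TSS, chr8:13494536-13494785: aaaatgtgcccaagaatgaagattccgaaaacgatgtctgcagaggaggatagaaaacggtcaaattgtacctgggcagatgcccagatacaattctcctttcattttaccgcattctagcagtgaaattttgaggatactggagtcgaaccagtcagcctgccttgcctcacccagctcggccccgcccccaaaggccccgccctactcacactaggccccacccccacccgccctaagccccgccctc

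Neither stretch held any of the motifs. These stretches end at the TSS, and the Gas6 TSS region called only in KO did hold AGGTCA, 6 bases from its summit. All promoters in the same table held AGGTCA in 14.0%, TGCTGA in 16.1%, PU.1 in 2.44%, C/EBP in 9.56% and AP-1 in 6.75% of stretches of that length. The shares were 9.99% for GATA, 3.2% for the CACCC box and 6.02% for the E-box.

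Of the other bridges, Pros1 (chr16:62854307-62929344, plus strand), encoding protein S, had its strongest region at the TSS (chr16:62854096-62854750). It was called at 12.6 in WT1 and at 10.6 and 9.38 in KO, and not in WT3. The scaled pileups were 0.567 against 0.485 and 0.631, so the control value lay between the others. A region 86.4 kb downstream (4.73 and 7.7) was called only in KO. Mfge8 (chr7:79133768-79149060, minus strand), which joins phosphatidylserine to αv integrins, had 1 region (chr7:79148589-79149328), at its TSS and in all 4 libraries. The fold enrichment was 17.7 and 8.41 in WT and 17.1 and 13.7 in KO, overlapping and with the smallest difference of the 8 (log2 fold change -0.04 ± 0.21 SE, limma, adjusted p = 0.93). The scaled pileup gave -0.20 ± 0.21 (SE, limma, adjusted p = 0.56).

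Most regions of these genes were not called in WT3, and a wider limma fit therefore took every region called in at least 1 library of each genotype, with missing values left out. It covered 35577 regions, 30 of them at the uptake genes. Each library was centred on its median over the regions called in all 4. A fit without WT3, given below, took its medians over more regions. On fold enrichment that change alone lowered every region called in all but WT3 by the same amount. At the Mertk region 20.6 kb downstream the log2 fold change went from 0.79 to 0.45. How many regions pass the fold limit of 1 thus depends on this choice. Where WT3 was missing, as in 22 of the 30, the control side was 1 library, which is assumed to vary like the others. A region called in only 1 library of each genotype has no spread of its own. Its SE (0.335 on fold enrichment, 0.419 on pileup) comes from the fit as a whole. This applied to Mertk 89.0 kb downstream, Timd4 15.0 and 12.3 kb upstream and 222 kb downstream, and Pros1 3.42 kb downstream. On fold enrichment 3 of the 30 rose in KO, against 7.73% of all regions, and 0 fell, against 0.385%. The median log2 fold change of the 30 was 0.28, against 0.20 over all regions. All 3 lacked WT3, as did 2689 of the 2750 regions called higher in the whole table (97.8%).

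The 3 regions were the Mertk intron 18 region (log2 fold change 1.36 ± 0.29 SE, limma, adjusted p = 0.0135), the Gas6 region 9.7 kb upstream (1.30 ± 0.28, adjusted p = 0.0147) and the Stab1 region 4.28 kb upstream (1.15 ± 0.31, adjusted p = 0.0301). On summit pileup, an alternative added after seeing the data, 5 of the 30 rose, against 9.85%, and 0 fell, against 2.44%. These were the same 3, at 1.73 ± 0.39 for Mertk (limma, adjusted p = 0.0197), 2.74 ± 0.35 for Gas6 (adjusted p = 0.00823) and 2.15 ± 0.38 for Stab1 (adjusted p = 0.0116). The Gas6 region 6.87 kb upstream (2.16 ± 0.35, limma, adjusted p = 0.0105) and the Mertk region in intron 1 (1.80 ± 0.35, adjusted p = 0.0134) joined them. Fitted instead without WT3, over 33268 regions and with a new median for each library, the Mertk intron 18 region had a log2 fold change of 1.02 ± 0.25 (SE, limma, adjusted p = 0.0474) and was the only one of 25 past the threshold, against 2.28% of all regions higher in KO, and 0 were higher in WT, against 1.28%. The Gas6 region 9.7 kb upstream was then at 0.96 ± 0.24 (limma, adjusted p = 0.0496), short of the fold limit, and the Stab1 region was at 0.81 ± 0.28 (adjusted p = 0.0969).

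**Figure D4:**
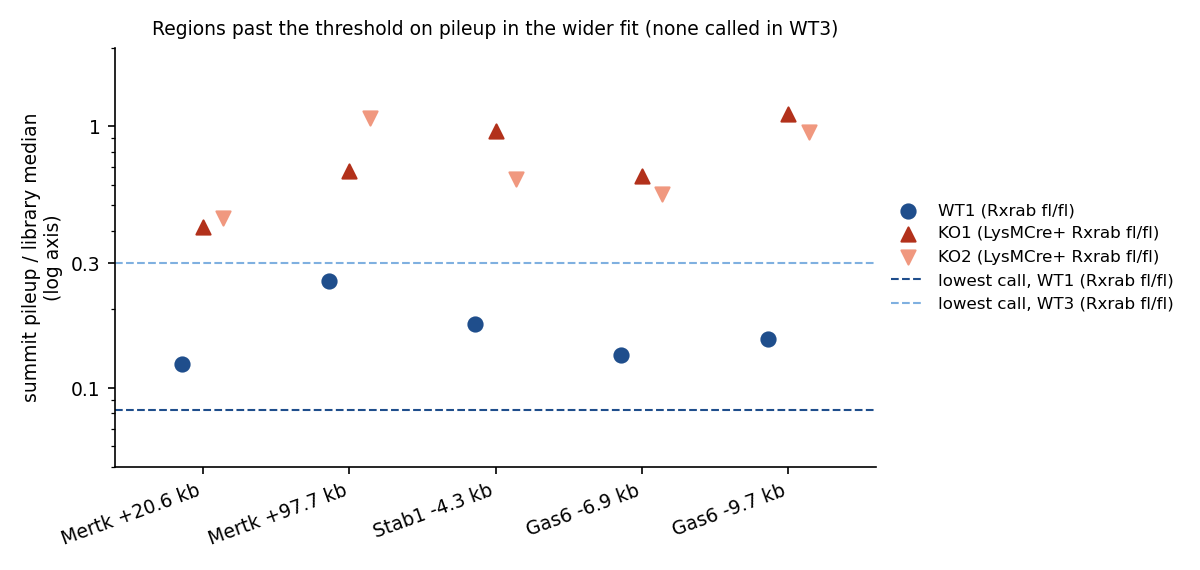
Summit pileup divided by the library median (log axis) for the 5 regions past the threshold on pileup in the wider fit, with 1 point per library in which they were called. Dashed lines give the lowest scaled pileup called at the genome-wide background in the WT libraries, 0.0825 and 0.3. Every KO point lies above both and every WT1 point between them. The regions were chosen by this same pileup, so these positions follow in part from the choice.

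**Figure D5:**
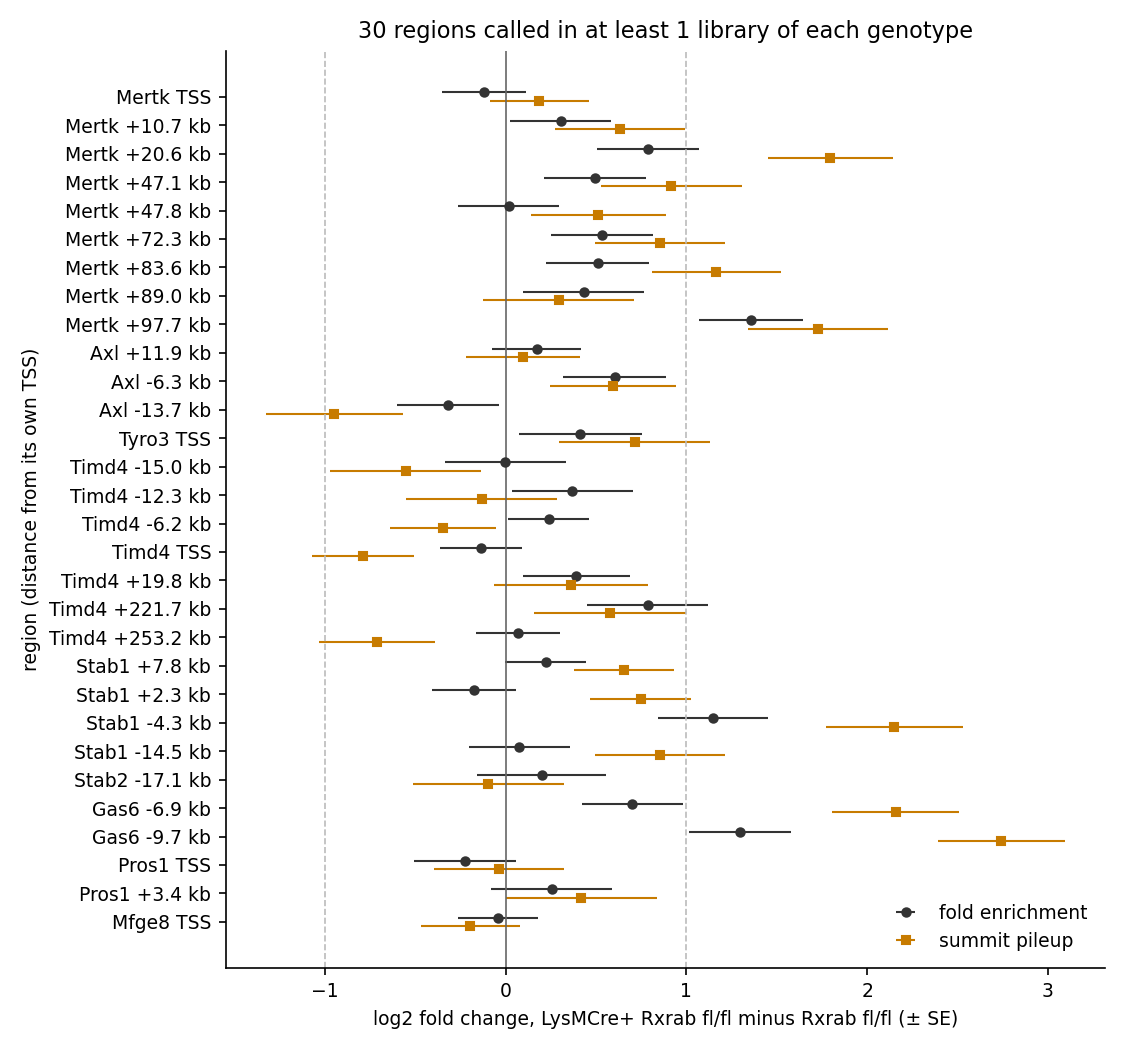
Log2 fold change with its SE for the 30 regions of the wider fit, by fold enrichment (circles) and by summit pileup (squares); dashed lines mark the fold limit of 1. On pileup the regions upstream of Gas6 (2.74 and 2.16) and 4.28 kb upstream of Stab1 (2.15) lie furthest to the right, and the Timd4 TSS lies at -0.14 and -0.79. Regions called in only 1 library of each genotype carry an SE taken from the fit as a whole.

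Of 40 other genes in the uptake, engulfment and digestion of apoptotic cells, 39 had at least 1 region, 336 in all. The number called in both KO libraries alone was 71 (21.1%), against 22.8% of all regions, and 0 were called in both WT libraries alone. In the fit of regions called in all 4 libraries, 0 of 87 passed on fold enrichment in either direction. On pileup 3 of 87 rose and 4 fell, against 2.49% and 4.98% of all regions. The TSS region of Cd300lf, which encodes a phosphatidylserine receptor, rose by 1.47 ± 0.24 (log2, SE, limma, adjusted p = 0.0197). Regions 6.69 kb upstream and 5.78 kb downstream of the TSS of Sirpa, the receptor for CD47, rose by 1.08 ± 0.22 (log2, SE, limma, adjusted p = 0.0252) and 1.12 ± 0.26 (adjusted p = 0.0311). Fold enrichment did not show this rise at the downstream Sirpa region. Before centring it was 10.8 and 5.86 in WT and 7.73 and 6.93 in KO. On pileup, regions of the scavenger receptor gene Marco (-1.43 ± 0.28, limma, adjusted p = 0.0243) and of Cd47 (-1.03 ± 0.21, adjusted p = 0.0271) fell. The TSS regions of Nr1h2 (-1.42 ± 0.33, limma, adjusted p = 0.0331) and Pparg (-1.10 ± 0.28, adjusted p = 0.038), which encode LXRβ and PPARγ, also fell. In the wider fit on fold enrichment, 13 of 188 rose (6.91%), including regions of Scarb1, Itgav, Lrp1 and Elmo1, and 1, assigned to Marco, fell. These shares are close to the 7.73% and 0.385% of the whole table.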

How the data were processed

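ATAC-seq was carried out on sorted LPMs of 4 libraries of library batch 1, 2 for each genotype. Per the study's methods and processing notes, the authors trimmed reads with cutadapt 1.7, used Bowtie2 to align them to mm10, took out duplicates, reads of low mapping quality (30 or less) and chromosomes M, X and Y, and called peaks in each library with MACS2 2.1.1 (shift 100, extension 200, q value 0.05). The deposited peak lists give the summit fold enrichment (a ratio to the local background with a pseudocount of 1, so it depends on depth), −log10 p and −log10 q values, and a score, which was not used. Read counts were not used here.

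Peaks were merged at 1 bp, and a region took the highest fold enrichment of its peaks in each library. The whole-number summit pileup was solved from fold enrichment and p value, which succeeded for 99.9969% or more of the peaks in each library; a solver test on simulated data recovered 100.0% of 20000. Genes were those of the RefSeq annotation of GRCm38.p6 (NM and NR transcripts, autosomes). limma 3.58.1 (R 4.3.3) was fitted over all regions with Benjamini-Hochberg adjustment. On simulated data for the fit of 15199 regions it called 54.0% of regions changed by log2 1.5, 79.0% of those changed by 2.5, and 0 of 14999 unchanged. The genome-wide background was 1.06 to 1.97 tags per 200 bp; floors cover counting error only.

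Members and gene lists were chosen with earlier results of these data known. Named were all 9 genes, with the regions at a TSS, the strongest region (largest mean log2 fold enrichment where called), the 2 strongest regions called in 1 genotype only, and any past a threshold; the other values were added after they were seen, as were pileup over genome-wide background and pileup in the wider fit. Alternatives covered the q value, peak number, summit windows, overlap, gene assignment, centring, variance trend and each library left out.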

Additional observations from a re-analysis of the deposited data

How the results depend on the processing

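The number of regions called only in both KO libraries was 10 of 52, with a background of 22.8%. With the same number of peaks per library it was 2 of 14, with a background of 7.82%. It was 10 to 27 with 1 library left out (27 without WT1, with a background of 49.2%, and 19 without KO2, with 44.3%). Within gene bodies it was 6 of 35. A q value under 0.01, summit windows, a 100 bp overlap and nearest TSS only each gave 10. Background shares for gene bodies and for these settings were not counted. The count in the other direction was 0 under every alternative run. The 0 regions past the limma threshold in KO became 3 in regions called in at least 2 libraries, 5 there on pileup and 1 without WT3, and 0 to 1 over the libraries left out; higher in WT there were 0 throughout.

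On fold enrichment the median over all regions was -0.09 with centring and 0.28 without it. On pileup it was -0.10 scaled to the library median and 1.03 over the genome-wide background. Within each measure this shifts every region by the same amount, so the 8 values relative to that median stayed as they were. Between the measures they differed, from -0.09 to 0.85 at Stab1 2.26 kb downstream and from 0.15 to -0.61 at Timd4 253 kb downstream. In the 48 refits of the 8 regions called in all 4 libraries on pileup, after quantile normalization or with 1 library left out, 36 kept their sign and 12 did not. Without centring the sign changed at the TSS of Mertk (0.25), Timd4 (0.23) and Mfge8 (0.33) and at Stab1 2.26 kb downstream (0.19); over the genome-wide background these were 1.32, 0.35, 0.94 and 1.88. On pileup it changed at Mertk (0.18), Timd4 6.18 kb upstream (-0.34), Timd4 253 kb downstream (-0.71) and Stab1 2.26 kb downstream (0.75). With 1 library left out the ranges were -0.32 to -0.08 at the Mertk TSS, -0.31 to 0.43 at Axl, -0.20 to 0.34, -0.42 to 0.019 and -0.28 to 0.25 at Timd4 6.18 kb upstream, TSS and 253 kb downstream, -0.17 to 0.28 and -0.36 to -0.08 at Stab1 7.82 and 2.26 kb downstream, and -0.44 to 0.023 at Mfge8. The cause was not tested. No paired analysis was possible because the genotypes share only replicate number 1. With WT3 at a median pileup of 20, weak regions could not be compared between all 4 libraries, and differences under a log2 fold change of 1 lie outside the call by its own limit. On the whole table, 6 regions were called higher in KO and 7 in WT on fold enrichment, 379 and 757 on pileup, 0 and 0 without centring, 9 and 2 after quantile normalization, 61 and 76 with a variance trend, 23 and 18 with equal peak numbers, 757 and 425 without WT3, and 2750 and 137 in the wider fit.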
